A study of Mus musculus with 8 samples.

Results

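The 8 hepatocyte identity transcription factors Hnf4a, Foxa1, Foxa2, Foxa3, Cebpa, Cebpb, Onecut1 and Prox1 were taken by name from the 49585 genes of a liver RNA sequencing table, and all 8 were found in it. The livers came from 8 mice after 3 months on a high-fat, choline-deficient (HFCD) diet, begun at 21 days of age per the labels, and the study's text describes the animals as males. In the 3 LP245/+ livers, the Alb-Cre transgene (Alb-CreTG) switched 1 Trp53 allele (Trp53wm-R245W/+), which gives wild-type p53 until recombination, to p53R245W. In the 2 LPfl/+ livers, the same transgene deleted 1 floxed Trp53 allele (Trp53fl/+). The 3 LP+/+ livers carried no Cre per the labels (Alb-Cre0), where the floxed allele of replicates 1 and 2 and the R245W allele of replicate 3 stayed unrecombined, whereas the study's text also names Alb-Cre carriers as controls. It gives LP+/+ as p53+/+ with the transgene, without a floxed or R245W allele. Cre driven by the albumin promoter recombines in hepatocytes and in bile duct cells, which share a progenitor with them, so the other cells of each liver kept their alleles. The question of the comparison was whether loss of 1 Trp53 allele or its change to p53R245W went with a change of these factors before tumors form.

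A hepatocyte keeps its identity through a small network of transcription factors that bind the genes of liver proteins and also bind each other's genes. HNF4A, a nuclear receptor, drives genes of lipid transport, bile acid synthesis and clotting. The FOXA factors open chromatin ahead of other factors, the C/EBP factors govern energy metabolism and the acute phase response, and ONECUT1 (HNF6) and PROX1 act in liver development and adult metabolism. In bulk tissue, fewer cells of a type and less RNA per cell cannot be told apart.

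RefSeq listed 12 promoter windows for the 8 genes on GRCm38.p6, each from 250 bases before to 50 bases after a transcription start. They were searched on both strands for AGGTCA (a half-site of HNF4 and other nuclear receptors), TGTTTAC (FOXA), TTGCNNAA (C/EBP), ATCGAT (Onecut), TTCNNNGAA (STAT) and the p53 half-site. The first base of the transcript follows base -1. Stretches of 140 bases, from -180 to -41, are shown for Foxa1, whose window held the single match, and for Onecut1, the factor with the widest range among the livers. Capitals mark the match, which lies on the opposite strand of the motif as spelled here.
Foxa1, - strand, chr12:57546152-57546291: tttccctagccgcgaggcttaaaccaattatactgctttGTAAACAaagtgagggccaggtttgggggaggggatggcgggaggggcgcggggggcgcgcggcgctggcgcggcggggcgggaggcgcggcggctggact
Onecut1, + strand, chr9:74861741-74861880: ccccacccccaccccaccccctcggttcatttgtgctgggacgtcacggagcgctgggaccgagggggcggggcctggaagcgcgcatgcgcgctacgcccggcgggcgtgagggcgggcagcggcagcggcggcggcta
Foxa1 had 1 FOXA motif at -141 to -135, which 3.65% of all 32851 RefSeq promoter windows held. None of the 12 windows held the motifs of nuclear receptors, C/EBP, Onecut, STAT or p53, which were in 16.3%, 10.8%, 0.925%, 8.3% and 8.36% of all windows. The Onecut1 window held no match to any motif searched, and 71.6% of the 250 bases before its start were G or C. A match is one of letters and not measured binding.

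The livers were sequenced to between 26304526 and 31370714 counts, and every factor had at least 45 counts in every liver, above the 3 counts taken as the floor of detection. In the order of replicate numbers, LP+/+ libraries held 28500707, 30331374 and 31370714 counts, LPfl/+ libraries 27741288 and 26345208, and LP245/+ libraries 26304526, 28310329 and 29846962. Library numbers in the sample names fall into a first series (the 3 LP245/+ livers and LP+/+ replicates 2 and 3) and a second (LP+/+ replicate 1 and both LPfl/+ livers). What the series stand for is not given in the sources used here, and they lay apart on the first principal component, which held 32.6% of the variance. LP245/+ and LPfl/+ livers never shared a series, so genotype and series can be separated in that comparison only through the LP+/+ livers, of which 1 lay in the second series. Trp53, the gene altered by design, had 234, 269 and 215 counts in LP+/+ replicates 1 to 3, 125 and 176 in LPfl/+ replicates 1 and 2, and 306, 291 and 190 in LP245/+ replicates 1 to 3. Both LPfl/+ livers lay below all others for Trp53, and gene counts pool wild-type and R245W transcripts.

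The 8 factors spanned a wide range of levels. In RPKM, the level per length that scales counts to the exon length of a gene and the total of a library, Hnf4a was highest at 133 ± 16.0 (SD, n = 8 livers), followed by Cebpa at 58.8 ± 5.11. Both lay above every other factor in every liver, and their own ranges did not overlap. Foxa3 (18.4 ± 5.08) and Prox1 (14.9 ± 1.90) came next and overlapped, and Prox1 also overlapped with Foxa2 (8.0 ± 2.15). Foxa1 (2.84 ± 0.63), Onecut1 (2.57 ± 2.53) and Cebpb (1.74 ± 0.54) were lowest and overlapped with each other. Onecut1 shares 2171 of its 4113 exon bases with the noncoding gene Gm20649 on the same strand, which had 0 counts in all 8 livers. Over the 1942 unshared bases alone, a length chosen after seeing the data, the mean Onecut1 level would be 5.43. Hepatocyte markers were detected as labelled, with all 10 present in each liver and a summed level between 115244 and 150476 CPM (counts scaled to the library total), led by Alb and Ttr.

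**Figure D1:**
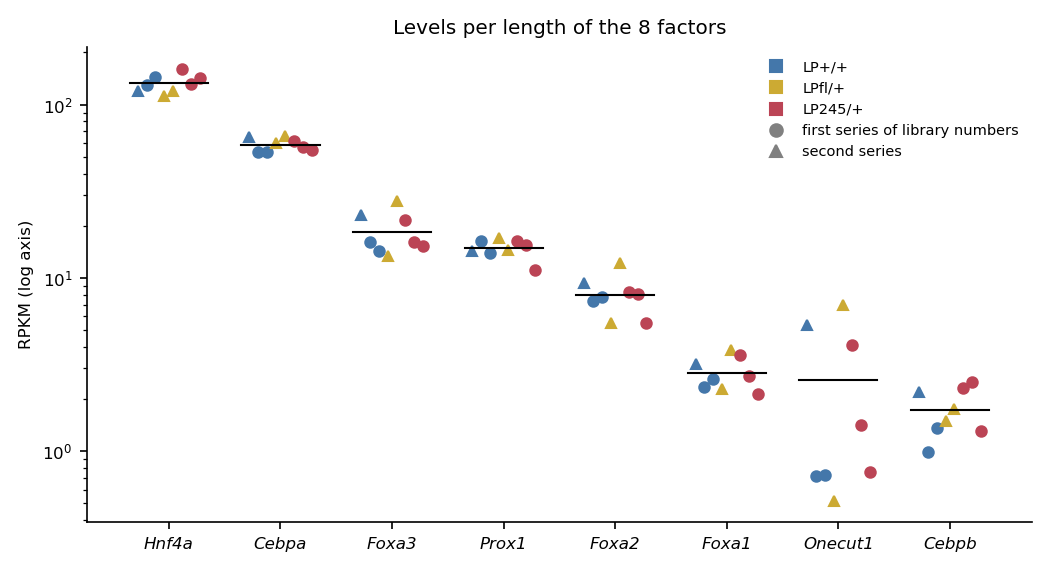
Levels of the 8 factors in RPKM (vertical log axis), with 1 point per liver, color for genotype, shape for the series of library numbers and a line at the mean of 8 livers. Hnf4a and Cebpa lie above all others, and Onecut1 spans the widest range.

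Hnf4a, the most abundant factor (chromosome 2, 163506808 to 163572910, + strand of GRCm38), was counted 16399, 19076 and 21811 times in LP+/+ replicates 1 to 3, 15068 and 15305 in LPfl/+ replicates 1 and 2, and 20489, 18045 and 20473 in LP245/+ replicates 1 to 3. Normalized read counts (counts divided by DESeq2 size factors) averaged 18231 ± 2342 (SD) over 3 LP+/+ livers, 15361 ± 133 (SD) over 2 LPfl/+ livers and 20084 ± 1612 (SD) over 3 LP245/+ livers. Both LPfl/+ livers lay below all LP+/+ and all LP245/+ livers, whereas LP245/+ and LP+/+ overlapped. The log2 fold change of Hnf4a in LP245/+ against LPfl/+ was 0.39 (standard error 0.14, 95% interval 0.07 to 0.71), with an unadjusted p of 0.0218 from edgeR's quasi-likelihood test and a Benjamini-Hochberg adjusted p of 0.509 over 16496 genes. In that comparison 8.51% of all genes tested had an unadjusted p below 0.05, and Hnf4a did not pass the cutoff, which asked for a change of 1 or more on the log2 scale in either direction together with an adjusted p no higher than 0.05. Compared with LP+/+, the log2 fold change was 0.15 in LP245/+ (edgeR adjusted p = 0.879) and -0.24 in LPfl/+ (edgeR adjusted p = 0.775). The LP+/+ liver of the second series, at 15844 normalized counts, lay beside the LPfl/+ livers, and all 5 livers of the first series (19820 ± 1427, SD) lay above all 3 of the second (15522 ± 294, SD). Within a series, the log2 ratio of means was 0.048 for LP245/+ and -0.045 for LPfl/+, each against the LP+/+ livers of that series. With the series as a covariate, the log2 fold change of LP245/+ against LPfl/+ was 0.096 (standard error 0.21, unadjusted p = 0.66 from edgeR). Among all genes tested, 9.57% had series that did not overlap. The antisense gene Hnf4aos, which overlaps the locus without sharing exon bases, had between 134 and 251 counts.

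**Figure D2:**
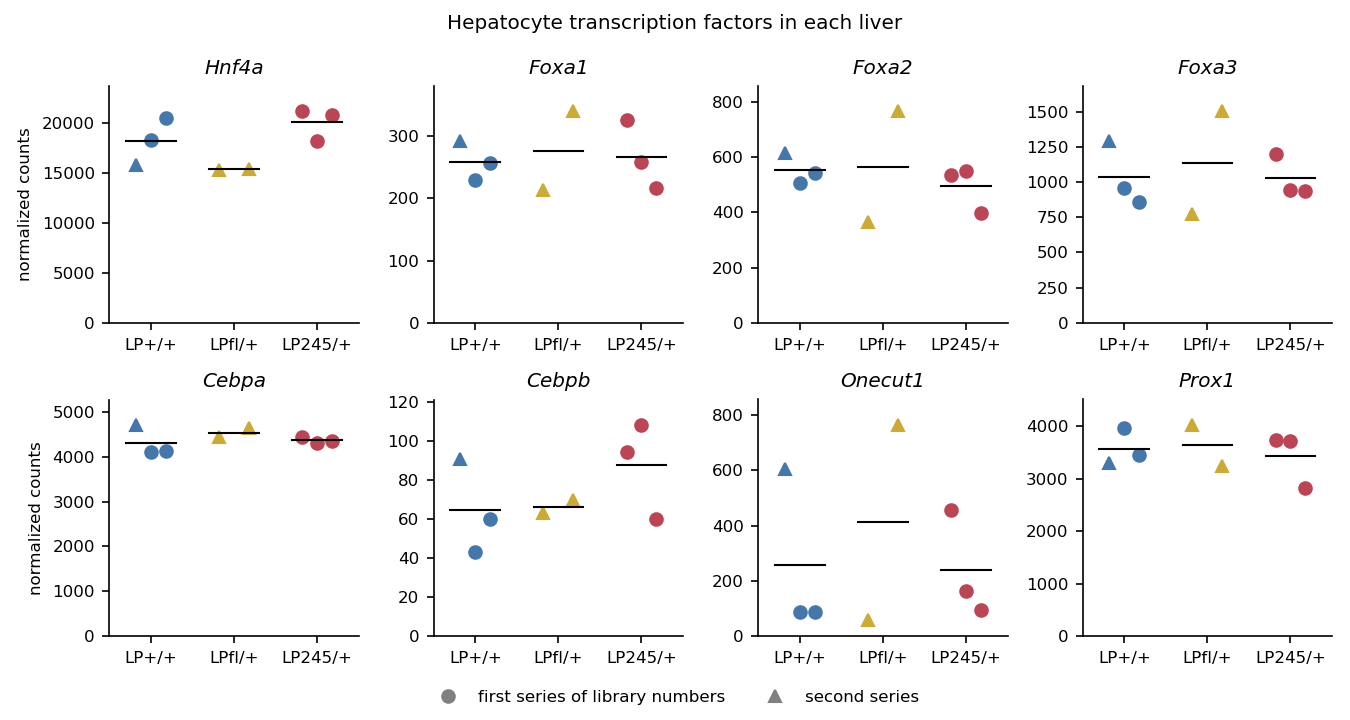
Normalized read counts (vertical axes from 0) of each factor by genotype (horizontal axes), with 1 point per liver, circles for the first and triangles for the second series of library numbers and a line at the genotype mean. In the Hnf4a panel the 3 triangles lie below the 5 circles, and in the Onecut1 panel each genotype holds at least 1 high and 1 low liver.

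The C/EBP pair differed in level and in steadiness. Cebpa (chromosome 7, 35119293 to 35121928, + strand), the C/EBP factor of the resting hepatocyte, had 4870, 4272 and 4385 counts in LP+/+ replicates 1 to 3, 4369 and 4583 in LPfl/+ replicates 1 and 2, and 4283, 4253 and 4277 in LP245/+ replicates 1 to 3. Its highest normalized count was 1.15 times its lowest, the narrowest range of the 8 factors. The spread within genotypes was 0.075 on the log2 scale, against a median of 0.22 for all genes, and 4.75% of genes had a smaller one. The log2 fold changes of Cebpa were 0.027 in LP245/+ and 0.079 in LPfl/+ against LP+/+, and -0.052 in LP245/+ against LPfl/+, with 95% intervals between -0.30 and 0.33 over the 3 comparisons. The series as a covariate turned the second of these values to -0.048 and the last to 0.14. Normalized counts of Cebpa were lower in all LP245/+ than in both LPfl/+ livers, although the nearest of them lay at 4426 and 4427, and lower in every liver of the first series (4262 ± 142, SD, n = 5) than in the second (4586 ± 144, SD, n = 3). Cebpb (chromosome 2, 167688915 to 167690418, + strand), which rises in the acute phase response and after liver injury, had the lowest mean level, although Onecut1 lay below it per length in 5 of the 8 livers. That count uses all exon bases of Onecut1 and depends on this choice. It had 94, 45 and 64 counts in LP+/+ replicates 1 to 3, 62 and 69 in LPfl/+ replicates 1 and 2, and 91, 107 and 59 in LP245/+ replicates 1 to 3. LP245/+ replicates 1 and 2 and LP+/+ replicate 1 were high and the genotypes overlapped. The log2 fold change of Cebpb was 0.44 in LP245/+ compared with LP+/+ (standard error 0.31, 95% interval -0.24 to 1.13, edgeR adjusted p = 0.846). Within the first series the log2 ratio was 0.76, and with the series as a covariate the unadjusted p from edgeR was 0.0257 and the adjusted p 0.721. In LPfl/+ the value was 0.042 over all livers and -0.46 within the second series. Cebpb shares 312 exon bases with Tmem189 on the opposite strand. Also with genes on the opposite strand, Cebpa shares 51 with Gm45091 (15 to 44 counts) and Prox1 133 with Prox1os (78 to 145 counts). The counted strand is not given in the sources used here, so reads in these shared stretches cannot be told apart.

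The 3 FOXA factors differed between livers of 1 genotype, in a similar order, and their genotype means lay close together. Foxa1 (chromosome 12, 57540628 to 57546916, - strand) had 302, 238 and 272 counts in LP+/+ replicates 1 to 3, 210 and 336 in LPfl/+ replicates 1 and 2, and 315, 255 and 213 in LP245/+ replicates 1 to 3. Foxa2 (chromosome 2, 148042877 to 148046969, - strand) had 635, 526 and 576 counts in LP+/+ replicates 1 to 3, 361 and 758 in LPfl/+ replicates 1 and 2, and 519, 543 and 390 in LP245/+ replicates 1 to 3. Foxa3 (chromosome 7, 19013284 to 19023538, - strand), the most abundant FOXA factor of adult liver here, had 1335, 996 and 909 counts in LP+/+ replicates 1 to 3, 760 and 1487 in LPfl/+ replicates 1 and 2, and 1159, 933 and 923 in LP245/+ replicates 1 to 3. The pair of LPfl/+ livers bounded all 3 genes, with replicate 1 the lowest and replicate 2 the highest of the 8 in normalized counts. The highest normalized count was 1.60 times the lowest for Foxa1, 2.09 times for Foxa2 and 1.95 times for Foxa3. Among 1000 genes of like abundance, the spread of Foxa2 within genotypes was at percentile 95.3 and that of Foxa3 at 96.5. No genotype difference in the 3 genes passed the test. Their log2 fold changes lay between -0.15 and 0.055 in LP245/+ and between 0.040 and 0.14 in LPfl/+ against LP+/+, and between -0.19 and -0.047 in LP245/+ against LPfl/+. The lowest adjusted p among these, from edgeR, was 0.895. With the series as a covariate, all values of the last pair of comparisons changed sign, to between -0.18 and -0.072 for LPfl/+ against LP+/+ and between 0.038 and 0.37 for LP245/+ against LPfl/+.

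Prox1 (chromosome 1, 190118035 to 190170714, - strand), a homeobox factor that restrains metabolic genes together with HNF4A, had 3407, 4134 and 3676 counts in LP+/+ replicates 1 to 3, 3975 and 3219 in LPfl/+ replicates 1 and 2, and 3625, 3684 and 2778 in LP245/+ replicates 1 to 3. Its order of livers ran another way than that of the FOXA genes, with LPfl/+ replicate 1 highest and LP245/+ replicate 3 lowest. The genotypes overlapped, and the log2 fold changes were -0.046 in LP245/+ and 0.035 in LPfl/+ against LP+/+, and -0.081 in LP245/+ against LPfl/+. All 95% intervals of Prox1 lay between -0.44 and 0.40.

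Onecut1 (chromosome 9, 74861921 to 74891781, + strand) varied most. It had 624, 90 and 94 counts in LP+/+ replicates 1 to 3, 59 and 756 in LPfl/+ replicates 1 and 2, and 442, 164 and 93 in LP245/+ replicates 1 to 3. Each genotype held 1 of the 3 highest livers and at least 1 low liver. The highest normalized count (763, LPfl/+ replicate 2) was 12.8 times the lowest (59.8, LPfl/+ replicate 1), 2 livers of the same genotype and series. The spread within genotypes was 1.70 on the log2 scale, and 76 of the 16496 genes tested had a larger one. Genotype differences could not be resolved against it: the log2 fold change was -0.10 (95% interval -2.26 to 2.05) in LP245/+ and 0.68 (95% interval -1.67 to 3.03) in LPfl/+ against LP+/+, and -0.78 (95% interval -3.14 to 1.58) in LP245/+ against LPfl/+. The edgeR adjusted p-values were 0.991, 0.914 and 0.888. Within a series, the log2 ratio to LP+/+ was 1.45 in LP245/+ and -0.55 in LPfl/+, both of the opposite sign to the values over all livers. Without LP+/+ replicate 1 the log2 fold change in LPfl/+ compared with LP+/+ was 2.24 (unadjusted p = 0.0423, adjusted p = 0.409, edgeR). That was the highest value with 1 liver left out, and the lowest was -2.12.

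The 3 livers highest in Onecut1 (LPfl/+ replicate 2, LP+/+ replicate 1 and LP245/+ replicate 1) were also the 3 highest in Foxa1 and in Foxa3, and the lowest (LPfl/+ replicate 1) was also the lowest in Foxa1, Foxa2, Foxa3 and Hnf4a. They did not stand out in Hnf4a in 1 direction, since LP245/+ replicate 1 was the highest and LPfl/+ replicate 2 the second lowest. Onecut2, the paralog, was named after its values were seen and lay between 2888 and 4149 normalized counts, so that its highest liver was 1.44 times its lowest. The gene most like Onecut1 over the 8 livers was Cish, with a root-mean-square difference of 0.745 between the centred log2 values. It was sought among the 42 genes with a spread over the livers at least as large as that of Onecut1. Cish encodes an inhibitor of cytokine signalling that growth hormone induces through STAT5. Its normalized counts were 197, 26.9 and 103 in LP+/+ replicates 1 to 3, 32.4 and 505 in LPfl/+ replicates 1 and 2, and 105, 50.5 and 23.4 in LP245/+ replicates 1 to 3. The 3 livers highest in Onecut1 were again the highest in Cish, although LP245/+ replicate 1 lay close to LP+/+ replicate 3. The next gene, Mup11 (0.965), belongs to the major urinary protein family, whose near-identical copies make its count uncertain.

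The repressor Bcl6, which acts on STAT5 target genes, was named after its values were seen. Its normalized counts were 315, 1739 and 1031 in LP+/+ replicates 1 to 3, 982 and 420 in LPfl/+ replicates 1 and 2, and 965, 1257 and 1962 in LP245/+ replicates 1 to 3. The 2 livers lowest in Bcl6 were the 2 highest in Onecut1. Socs2, another STAT5 target named after its values were seen, was highest in LP245/+ replicate 1 (305) and LPfl/+ replicate 2 (304) and lowest in LPfl/+ replicate 1 (96.3). LP+/+ replicate 3, which was low in Onecut1, lay at 233 for Socs2, close to LP+/+ replicate 1 (252). Gata4, a FOXA partner in liver development and likewise named after its values were seen, had 750 normalized counts in LP+/+ replicate 1, 676 in LPfl/+ replicate 2 and between 312 and 440 in the other livers. Igf1, the growth factor made by hepatocytes under growth hormone, and Ghr, the receptor of that hormone, were also named after their values were seen. By contrast, Igf1 differed at most 1.35-fold between livers, and Ghr 1.20-fold. Stat5b, likewise named after its values were seen, did not follow Onecut1. Its normalized counts were highest in LP+/+ replicate 3 (3125) and lowest in LP245/+ replicate 3 (1973), both low in Onecut1. The part of hormone signalling in the spread of Onecut1 was not tested. The promoter window of Cish held TTCNNNGAA at 2 places after its start, and that of Onecut1 at none.

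**Figure D3:**
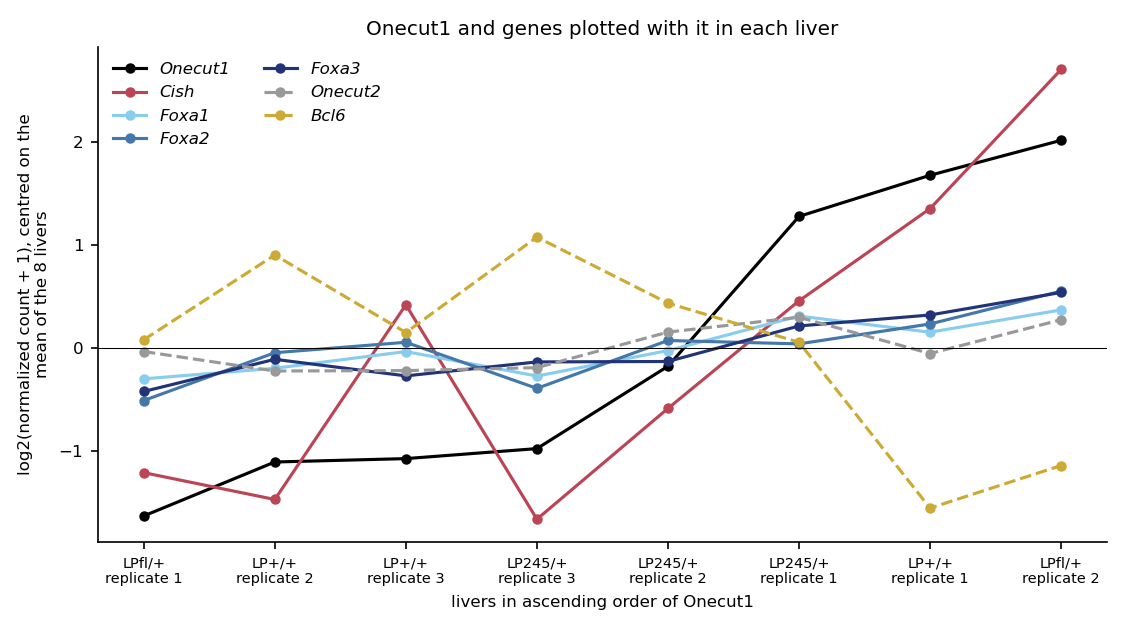
Log2(normalized read count + 1) of Onecut1, Cish, the 3 FOXA genes, Onecut2 and Bcl6, each centred on its mean over the 8 livers (vertical axis), with the livers ordered by Onecut1 (horizontal axis) and lines that join the points of 1 gene. The FOXA genes rise toward the right in smaller steps than Onecut1 and Cish, and Bcl6 is lowest in the last 2 livers.

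Of the other factors, Hnf4a was most like Dusp28 (root-mean-square difference 0.0771) and Baiap2l1 (0.0808), which were low in the second series with it. Foxa1 was most like Nsd3 (0.0991) and Wipi1 (0.102), Foxa2 like Synpo (0.169) and Mapkapk3 (0.170), and Foxa3 like Zc2hc1c (0.144) and Lifr (0.156). Foxa2 was the fifth most alike gene to Foxa3 among 1112 with a spread at least as large as that of Foxa3. Cebpa was most like Nsmaf (0.0357) and Kmt5b (0.0375), Cebpb like Kmt2d (0.280) and the pseudogene Mup-ps13 (0.308), and Prox1 like Myo1f (0.0846) and Uba7 (0.0892). These measures describe 8 livers, in which the series of library numbers also differed.

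Over the 8 factors, 0 passed the cutoff in any comparison. The background of all genes was as low, with 0.00606% past the cutoff in LP245/+ compared with LP+/+, 0% in LPfl/+ against LP+/+ and 0% in LP245/+ against LPfl/+. At an unadjusted p below 0.05 from edgeR, 0 of 8 factors were called in the first comparison and 0 of 8 in the second, where 5.93% and 6.89% of all genes were. In the last comparison 1 of 8, Hnf4a, was called, beside 8.51% of all genes. In the test for any difference among the 3 genotypes, 0% of genes had an adjusted p of at most 0.05 and 7.79% an unadjusted p below 0.05, and 0 of the 8 factors reached either. DESeq2 also called 0 of 8 in each comparison, while it called 10, 9 and 56 of all genes in them. The median log2 fold change of the factors was 0.014 in LP245/+ and 0.060 in LPfl/+ against LP+/+, and -0.067 in LP245/+ against LPfl/+, beside medians of 0.0029, -0.0010 and 0.0039 for all genes. Normalized counts of the genotypes did not overlap for 0 of 8 factors in LP245/+ compared with LP+/+, for 1 (Hnf4a) in LPfl/+ compared with LP+/+ and for 2 (Hnf4a and Cebpa) in LP245/+ against LPfl/+. The shares of all genes were 11.8%, 25.1% and 25.4%. Because the 3 comparisons share livers, their values are not independent. The p-values measure the spread between the livers of this study. Except where the covariate is named, they come from fits without a term for the series.

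**Figure D4:**
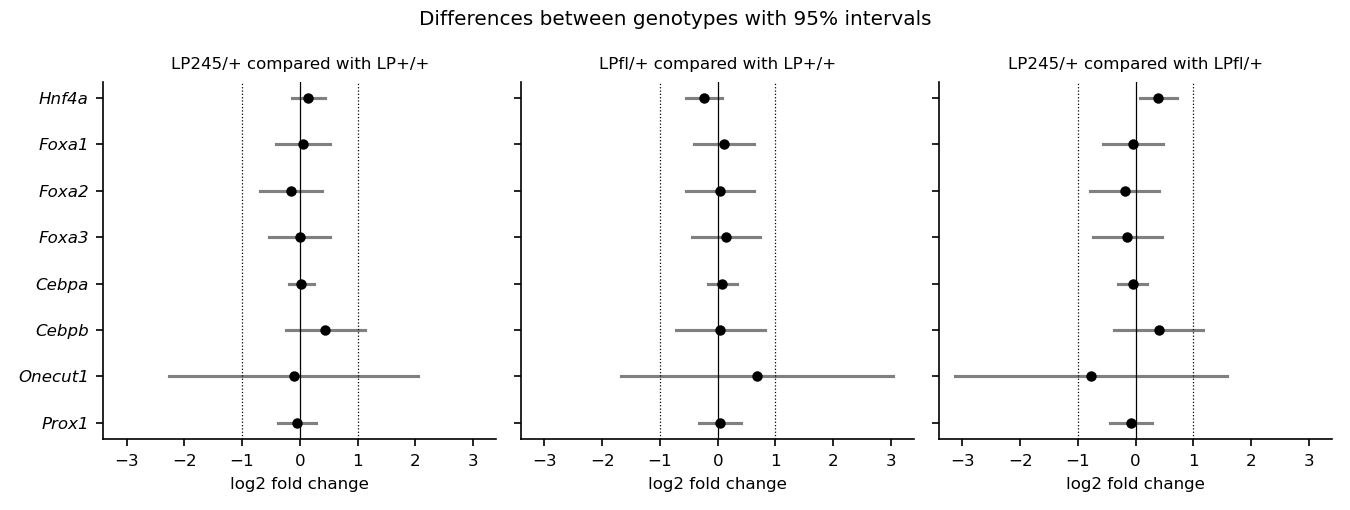
Log2 fold changes of the 8 factors (points) with 95% intervals (lines) from edgeR in the 3 comparisons, with dotted lines at -1 and 1. Each interval crosses 0 except that of Hnf4a in LP245/+ against LPfl/+, and those of Onecut1 are the widest.

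Other liver-enriched factors gave the same count. Of 30 such genes, 29 were tested (Hnf4g had too few counts) and 0 passed the cutoff in any comparison. The most abundant per length were Creb3l3 (92.7 ± 6.15 RPKM), a membrane-bound activator of fasting genes, and Rxra (75.8 ± 7.32 RPKM), the partner of many nuclear receptors. Unadjusted p-values below 0.05 from edgeR occurred for 4 of them, all in LP245/+ against LPfl/+, where 8.51% of all genes had one. The log2 fold change was 0.39 for Ppara, the lipid-sensing receptor of fatty acid oxidation, 0.31 for Rxra, 0.61 for Foxo1, a factor that insulin holds back, and -0.82 for Hhex, a homeobox factor of the early liver. Their edgeR adjusted p-values lay between 0.525 and 0.543. Ppara, Foxo1 and Hhex were named after their values were seen, and all 3 were among 5 of the 29 factors, with Nr1i3 and Nr1i2, whose series did not overlap, as for 9.57% of all genes.

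Known targets of the factors were followed as lists. Some genes are on several lists, as Ttr is on the HNF4A, FOXA and hepatocyte marker lists, so the lists are not independent. The most abundant targets per length were Apoa2 and Fabp1 for HNF4A, Alb and Ttr for FOXA, Alb and Hp for C/EBP, and Pck1 and G6pc for Onecut1 and Prox1. Of 20 HNF4A targets, 0 passed the cutoff in any comparison, and Cyp8b1, a sterol hydroxylase of bile acid synthesis, was the one with an unadjusted p of at most 0.01. Apoa4, an apolipoprotein, had a log2 fold change of -1.60 in LP245/+ against LPfl/+ (edgeR adjusted p = 0.525), but it followed the series. LP+/+ replicate 1 (17518 normalized counts) lay with both LPfl/+ livers (12596 and 15788), above all livers of the first series (2910 to 5883). Cyp8b1 had 13795, 8698 and 8026 normalized counts in LP+/+ replicates 1 to 3, 6826 and 8603 in LPfl/+ replicates 1 and 2, and 4709, 6631 and 5169 in LP245/+ replicates 1 to 3. Every LP245/+ liver lay below every other liver, although LP245/+ replicate 2 lay close to LPfl/+ replicate 1. Of all genes, 11.8% did not overlap between LP245/+ and LP+/+. The log2 fold change of Cyp8b1 was -0.88 in LP245/+ compared with LP+/+ (standard error 0.22, unadjusted p = 0.00269, adjusted p = 0.795, edgeR). Its size leans on LP+/+ replicate 1, of the second series, which lay far above the other LP+/+ livers. Of 10 FOXA targets, 0 passed the cutoff and 0 had an unadjusted p below 0.05 in any comparison. Among 15 C/EBP targets, 0 passed the cutoff, and 5 had a negative log2 fold change with an unadjusted p below 0.05 in LP245/+ compared with LP+/+ and 5 in LP245/+ against LPfl/+, where 5.93% and 8.51% of all genes had such a p in either direction. G6pc, the last enzyme of glucose release, and the acute phase genes Orm1, Saa1 and Lcn2 were among both sets of 5, beside Orm2 in the first and Saa2 in the second. Orm2, an acute phase protein, had 291, 697 and 327 normalized counts in LP+/+ replicates 1 to 3, 332 and 297 in LPfl/+ replicates 1 and 2, and 149, 282 and 129 in LP245/+ replicates 1 to 3, a log2 fold change of -1.22 in LP245/+ against LP+/+ (edgeR adjusted p = 0.795). For Orm2, LP245/+ and LP+/+ did not overlap, but the highest LP245/+ and the lowest LP+/+ liver lay close together. LP+/+ replicate 2 was far above the other LP+/+ livers, so the size of this change leans on it. Saa1, the serum amyloid of the acute phase, had 707, 941 and 404 normalized counts in LP+/+ replicates 1 to 3, 1258 and 992 in LPfl/+ replicates 1 and 2, and 385, 466 and 403 in LP245/+ replicates 1 to 3. The log2 fold change of Saa1 was -1.43 in LP245/+ against LPfl/+ (standard error 0.28, edgeR adjusted p = 0.362), with no overlap of these genotypes. In LPfl/+ compared with LP+/+ it was 0.73, the single C/EBP target with an unadjusted p below 0.05 there (edgeR adjusted p = 0.704). Orm1, Orm2, Saa1 and Saa2 have close paralogs, which could split their reads. Of 8 Onecut1 or Prox1 targets, 0 passed the cutoff. G6pc, which is on this list too, had a log2 fold change of -1.05 in LP245/+ against LP+/+ (edgeR adjusted p = 0.795). Its normalized counts were 32735, 12442 and 17367 in LP+/+ replicates 1 to 3, 25614 and 12832 in LPfl/+ replicates 1 and 2, and 8859, 12353 and 8775 in LP245/+ replicates 1 to 3. LP+/+ replicate 1, of the second series, was far above the other LP+/+ livers, and LP245/+ replicate 2 lay beside LP+/+ replicate 2. For LP245/+ against LP+/+, the median log2 fold change was -0.071 over the HNF4A list, -0.056 for the FOXA list, -0.18 for the C/EBP list and -0.14 for the Onecut1 and Prox1 list, beside 0.0029 for all genes. In that order, 13 of 20, 7 of 10, 12 of 15 and 5 of 8 targets lay below 0, as did 8 of 10 hepatocyte markers. For LPfl/+ against LP+/+, the medians of these 4 target lists, in the same order, were -0.12, -0.22, -0.14 and -0.077, with 16 of 20 HNF4A targets and 9 of 10 FOXA targets below 0, beside -0.0010 for all genes. Both LPfl/+ livers were of the second series, and these values use LP+/+ livers of both series. Apoa2, Fabp1, Alb and Ttr were lower in LP+/+ replicate 1, of the second series, than in both LPfl/+ livers. Other targets, such as Mttp and Igfbp1, were higher in it than in both. Counts of targets below 0 were not taken within a series. In LPfl/+ against LP+/+, the 10 general hepatocyte markers had a median of -0.22, with 8 below 0, and 12 of the 15 C/EBP targets were also below 0. Within the second series, the summed level of the hepatocyte markers was lower in LP+/+ replicate 1 (115244 CPM) than in LPfl/+ replicates 1 and 2 (120036 and 117926 CPM). That sum is led by Alb and Ttr and says little of the other markers. Cps1 went the other way, with 152351 normalized counts in LP+/+ replicate 1 against 151975 and 95369. Counts of markers below 0 were not taken within a series either. For LP245/+ against LPfl/+, the medians of the target lists were 0.050, 0.13, -0.0068 and -0.027, beside 0.0039 for all genes. Apart from the most abundant targets and Cyp8b1, Orm2 and Saa1, the genes named here were chosen after their values were seen, as was the fold change of G6pc.

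Markers of other liver cells were present at lower summed levels and differed between livers. Endothelial markers lay between 518 and 850 CPM, macrophage markers between 406 and 595, stellate cell markers between 508 and 654, bile duct markers between 60.7 and 80.4, leukocyte markers between 18.7 and 32.5 and erythroid markers between 319 and 672. All members of each list had a count in every liver, and the 2 most abundant per length were Ptprb and Clec4g (endothelial), Lyz2 and Cd5l (macrophage), Dcn and Rgs5 (stellate), Spp1 and Pkhd1 (bile duct), S100a9 and Ptprc (leukocyte), and Hbb-bs and Hba-a1 (erythroid). LPfl/+ replicate 1, the liver lowest in Onecut1 and the FOXA genes, was lowest in the endothelial and stellate sums and highest in the macrophage and leukocyte sums. Its hepatocyte sum was 120036 CPM, within the range of the other livers. In LPfl/+ against LP+/+, 8 of 10 endothelial markers (median log2 fold change -0.31) and 6 of 6 erythroid markers (median -0.83) lay below 0, with 3 of each list at an unadjusted p below 0.05, beside 6.89% of all genes, and 0 past the cutoff. In LP245/+ against LP+/+, 10 of 10 macrophage markers lay below 0 (median -0.17), with 0 at an unadjusted p below 0.05, beside 5.93% of all genes. Of the erythroid markers, 5 of 6 lay below 0 in this comparison (median -0.27), with 1 at such a p. For LP245/+ against LPfl/+, where Hnf4a had its lowest p, 8 of 10 macrophage markers lay below 0 (median -0.34, 3 at an unadjusted p below 0.05), 9 of 10 endothelial markers above 0 (median 0.26, 1 at such a p) and 6 of 6 erythroid markers above 0 (median 0.37, 0 at such a p), beside 8.51% of all genes, with 0 past the cutoff. In LP245/+ against LPfl/+, 9 of 10 hepatocyte markers lay above 0 (median log2 fold change 0.14), as Hnf4a did, and so did 8 of 10 FOXA targets (median 0.13). Both lists hold Alb, Ttr, Tdo2 and Cps1, so they are not separate observations. Both had 0 genes at an unadjusted p below 0.05 from edgeR there. The endothelial marker Vwf had a log2 fold change of -0.65 in LPfl/+ compared with LP+/+ (edgeR adjusted p = 0.697). The part of these cells in the values of the factors was not tested.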

How the data were processed

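RNA of 8 livers was sequenced by the authors with stranded total RNA libraries and 76-base paired-end reads, and aligned to GRCm38 with STAR, which also counted reads on GENCODE genes. The deposited values are raw counts per gene, without normalization. The GENCODE release and the counted strand are not given in the sources used here. All 8 columns were matched to samples by their labels. Symbols came from GENCODE M21, which named 49326 of 49585 identifiers.

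Counts were tested with edgeR 4.0.16 (R 4.3.3; quasi-likelihood F test, TMM, filterByExpr, all 8 livers in 1 fit), adjusted by Benjamini-Hochberg over 16496 genes. Normalized counts used DESeq2 1.42.0 size factors. Levels per length used merged exons. Figures were drawn with matplotlib 3.10.9. The fit was also run on simulated counts with the same setting of spread for every gene and no effect of the series. That run checked the code and cannot show how the fit handles the spread and series of these data. No 2 libraries were duplicates (lowest chi-square per gene 19.9 over 28 pairs).

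The factors and lists were chosen with earlier results of these data known. Named were all 8 factors and list genes past the cutoff or with an unadjusted p of at most 0.01. Also named were the 2 most abundant of each list and the 2 genes most like each factor. The latter were taken among genes with a mean normalized count of at least 100 and a standard deviation at least that of the factor. Other genes are marked where they appear. The alternatives were DESeq2, other size factors, filters, only the 2 genotypes compared, no fold-change cutoff, a replicate block, the series as a covariate and each liver left out. A search of the members' promoters for TTCNNNGAA was added after seeing the data. Protein sequences were not used here. Some genes of the lists and 1 motif are not reported here.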

Additional observations from a re-analysis of the deposited data

How the results depend on the processing

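In LP245/+ compared with LP+/+, LPfl/+ compared with LP+/+ and LP245/+ compared with LPfl/+, 0 of the 8 factors passed the cutoff under every alternative run. Of 208 fold changes of factors with no liver left out, 179 kept their direction and 29 reversed, and of 192 with 1 liver left out, 161 kept it and 31 reversed, with 0 past the cutoff. The lowest adjusted p was 0.273, for Hnf4a in LP245/+ compared with LPfl/+ with DESeq2.

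Genes past the cutoff in these comparisons numbered 1, 0 and 0 with edgeR, but 10, 9 and 56 with DESeq2, 20, 14 and 122 with no filter on low counts, and 3, 3 and 10 with the series as a covariate. With only the 2 genotypes compared, the last count was 51. For any difference among the genotypes, 0 genes became 74 with DESeq2, 152 with no filter and 8 with the covariate. With 1 liver left out the counts ranged from 0 to 5, 0 to 59, 0 to 47 and 0 to 73, the highest of the last 3 without LP+/+ replicate 1. The causes were not tested.

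Foxa3 in LP245/+ compared with LP+/+ was near 0 and reversed to -0.010 with DESeq2, -0.0047 with relative log expression size factors, -0.0094 with library totals, -0.0030 with no filter, -0.0015 with at least 10 counts in every liver and -0.0066 with only the 2 genotypes compared. Onecut1 reversed to 1.46 with the covariate and 1.45 within a series. In LPfl/+ compared with LP+/+, values with the covariate and within a series were -0.072 and -0.080 for Foxa1, -0.11 and -0.12 for Foxa2, -0.18 and -0.18 for Foxa3, -0.048 and -0.056 for Cebpa, -0.45 and -0.46 for Cebpb, and -0.54 and -0.55 for Onecut1. In LP245/+ compared with LPfl/+, the covariate gave 0.22 for Foxa1, 0.038 for Foxa2, 0.37 for Foxa3, 0.14 for Cebpa and 2.0 for Onecut1.

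With 1 liver left out, in LP245/+ compared with LP+/+, Hnf4a ranged from 0.060 to 0.24, Cebpb from 0.21 to 0.77, Foxa2 from -0.24 to -0.027, Cebpa from -0.017 to 0.095, Foxa1 from -0.12 to 0.17, Foxa3 from -0.13 to 0.19, Onecut1 from -0.99 to 1.46 and Prox1 from -0.12 to 0.065. In LPfl/+ compared with LP+/+, Hnf4a ranged from -0.33 to -0.15, Cebpa from 0.031 to 0.15, Cebpb from -0.19 to 0.37, Foxa1 from -0.29 to 0.39, Foxa2 from -0.60 to 0.46, Foxa3 from -0.43 to 0.54, Onecut1 from -2.12 to 2.24 and Prox1 from -0.14 to 0.17. In LP245/+ compared with LPfl/+, Hnf4a ranged from 0.35 to 0.45, Cebpa from -0.083 to -0.016, Cebpb from 0.22 to 0.61, Foxa1 from -0.34 to 0.33, Foxa2 from -0.63 to 0.44, Foxa3 from -0.55 to 0.42, Onecut1 from -1.67 to 2.0 and Prox1 from -0.22 to 0.082.

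Deviations of livers with the same replicate number had correlations from -0.078 to 0.029, and those of livers with different numbers from -0.108 to 0.0844. These values gave no sign that the numbers pair livers, but they cannot exclude a pairing. With the replicate block, 0 genes passed the cutoff in LP245/+ compared with LP+/+, and reversed values were -0.099 for Foxa2, -0.084 for Cebpb and -0.048 for Prox1 in LPfl/+ compared with LP+/+ and 0.017 for Foxa1 in LP245/+ compared with LPfl/+. At between 26304526 and 31370714 counts per liver, Cebpb had the fewest counts, 45 to 107, and Onecut1 had the largest standard errors, beside its spread of 1.70 within genotypes.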
